A study of Mus musculus with 8 samples.

Results

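The nuclear genes of the mitochondrial respiratory chain were compared between kidneys with and without a deletion of Mta2, complex by complex. Members were chosen by symbol alone. They were the genes whose symbols start with Nduf, Uqcr, Atp5 or Cox4 to Cox8, the genes Sdha, Sdhb, Sdhc and Sdhd, and Cyc1 and Cycs. This rule found 93 of the 23219 genes in the table. Of these, 44 belonged to complex I, 4 to complex II, 9 to complex III, 18 to complex IV and 17 to complex V, and Cycs encodes cytochrome c. The prefixes also took in 7 complex I assembly factors (Ndufaf1 to Ndufaf7), Atp5s, and Atp5sl, whose human homologue is an assembly factor of complex I. Ndufa4 was counted with complex I by its name, although its product is now placed in complex IV.

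Both groups were whole kidneys of mice aged 2 months that carried floxed Mta2 alleles (Mta2flx/flx), with 4 libraries each. The mutants had Six2Cre in addition. This transgene makes Cre under the promoter of Six2, a nephron progenitor gene, so that Mta2, a subunit of the NuRD chromatin remodelling and deacetylase complex, is deleted in the cells that form the nephron epithelium. The study's title links the deletion to FSGS, in which glomeruli scar. Collecting duct, vessels, stroma and immune cells of the same kidneys lie outside that lineage. Separate animals are not stated for the 4 kidneys of a genotype, so p-values reflect the spread among libraries, which may be technical in part. Each library keeps its title number. Lists of 4 values follow the order 3401, 3486, 3586 and 3587 for controls and 3382, 3387, 3487 and 3489 for mutants.

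The respiratory chain passes electrons from NADH through complex I, and from succinate through complex II, to ubiquinone, then through complex III and cytochrome c to complex IV, where oxygen is reduced. Complexes I, III and IV pump protons across the inner mitochondrial membrane, and complex V, the ATP synthase, uses their return to make ATP. Most subunits are encoded in the nucleus and a small set in the mitochondrial genome. The kidney, above all the proximal tubule, is among the tissues richest in mitochondria because solute reabsorption depends on ATP.

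Levels are given as BPM, the sequenced bases assigned to a gene per megabase assigned to all genes. They are not divided by gene length unless stated. Libraries held 164 to 468 megabases. Small RNA genes took 16.0 to 34.8% of the bases in controls and 26.1 to 53.2% in mutants, which leaves a different remainder for all other genes. Mta2 itself measured 49.0, 35.1, 67.9 and 52.4 BPM in controls and 52.6, 33.1, 14.3 and 48.9 BPM in mutants, and these groups overlap (log2 fold change -0.56, SE 0.40, limma adjusted p = 0.857). The libraries labelled mutant 3382 and 3489 were within the control range for the targeted gene, and the value for the whole gene includes cells outside the Six2 lineage. Mutants below are the libraries so labelled. The 10 proximal tubule markers summed to 52905 to 62426 BPM in controls and 34360.1 to 59447 BPM in mutants, so kidney tubule was present in every library. Most of that sum was Kap, at 43107.5 to 56718 BPM in controls and 27188 to 55291 BPM in mutants. No gene of the mitochondrial genome was listed under its mt- symbol, and those subunits were not analysed here.

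Of the 93 members, 91 reached 1 BPM in at least 4 libraries and were tested. The untested members were Cox7b2, with no coverage in any library, and Cox8c, with coverage in control 3587 alone (0.406 BPM). No member passed an adjusted p of 0.05 in limma with Benjamini-Hochberg adjustment, against 14 of 13054 genes tested (0.107%), 0.0306% lower and 0.0766% higher. The smallest adjusted p was 0.195, for Ndufa4. At an unadjusted p under 0.05, 34 of the 91 members were lower in mutants and 1, Cox6b2, was higher. Over all genes tested, 4.42% were lower and 1.91% higher by that measure, 6.33% in all. The log2 fold change was negative for 85 of 91 members, compared with 71.5% of all genes tested. Its median was -0.60 over the members and -0.23 over all genes, a distance of -0.37. That distance ranged from -0.57 without control 3586 to -0.18 without mutant 3489 as each library was left out, and was -0.23 without control 3486. In whole tissue, fewer cells of a type and less RNA per cell cannot be told apart.

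Every mutant lay below every control for 19 members and above every control for none. The shares over all genes tested were 3.4% below and 0.889% above. The 19 members were Ndufa1, Ndufa3, Ndufa4, Ndufa4l2, Ndufa6, Ndufa7, Ndufa13, Ndufaf4, Ndufb3, Ndufb5, Ndufc2, Ndufv2, Sdhb, Uqcr10, Uqcrfs1, Cox6b1, Cox8a, Cycs and Atp5sl. The separation depended on the scaling of the libraries. Scaled to the same median over genes that are not small RNA genes, 3 members lay below in every mutant, close to the 2.53% of all genes that did so, and 1 lay above, against 2.81%. That scaling moves the median log2 fold change of all genes from -0.23 to -0.029, and 80 of 91 members then had negative values, against 53.4% of all genes. The members with an unadjusted p under 0.05 and lower values then numbered 16, against 4.21% of all genes.

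**Figure D1:**
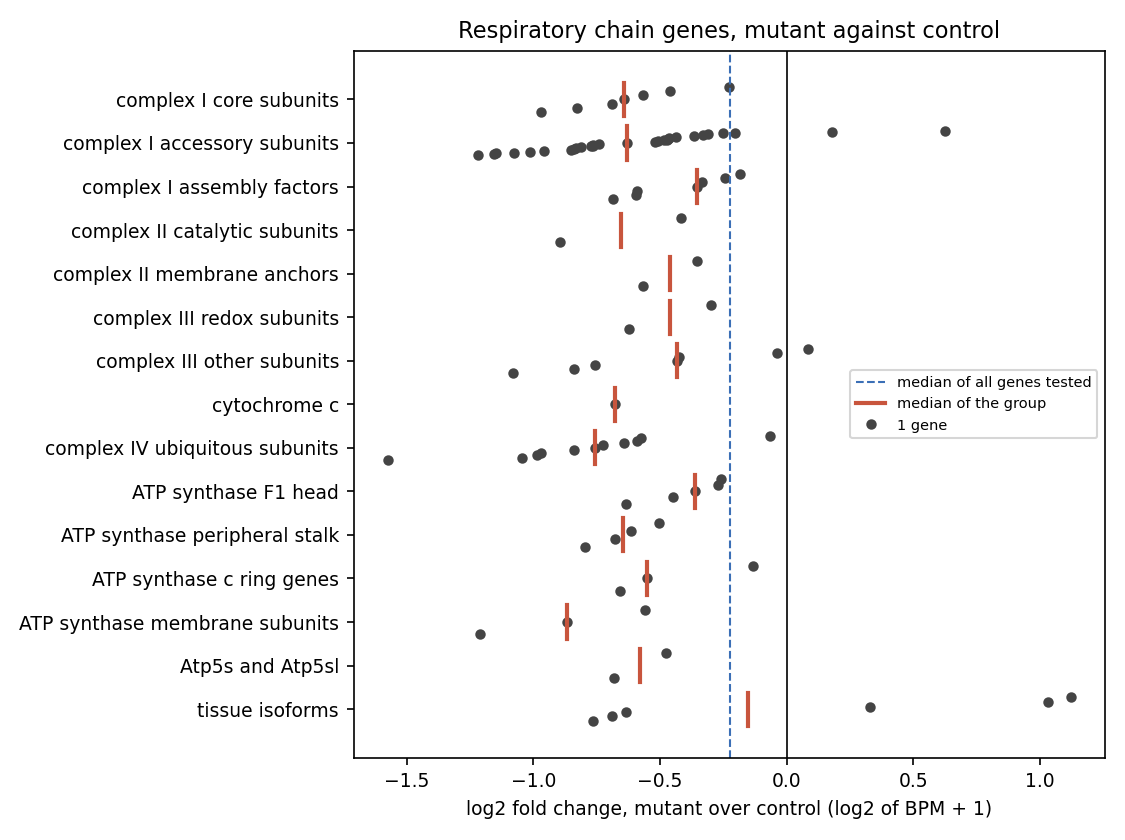
Log2 fold change of mutants over controls, on the log2(BPM + 1) scale, with 1 point for each tested member, a red bar at the median of each role and a dashed line at the median of all genes tested (-0.23). Most members lie to the left of that line, 85 of 91 are negative, and none passed the adjusted threshold.

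The mutants were not alike. Measured as the median over members of the log2 ratio to the control mean, mutants 3387, 3487 and 3489 were at -0.74, -0.82 and -0.65, while mutant 3382 was at -0.13. The controls were at -0.090, 0.10, -0.24 and 0.15. Mutant 3382 was the highest mutant for 65 of 91 members and lay above the lowest control for 66, whereas the other 3 mutants were all below every control for 53 members. When the median of all genes in each library was subtracted, controls were at -0.031, 0.43, -0.62 and 0.076 and mutants at -0.38, -0.22, -0.036 and -0.89. On that relative scale mutants 3382, 3387 and 3487 lay within the range of the controls, and mutant 3489 lay below it. Without mutant 3382 the members' median log2 fold change was -0.74 and 46 were lower at an unadjusted p under 0.05, against 8.71% of all genes. Without mutant 3489 these were -0.55 and 28, against 6.81%. The median of all genes was -0.38 without mutant 3382 and -0.37 without mutant 3489.

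The members together held 27603, 31744, 26626 and 33940.2 BPM in controls and 26652, 19629, 18882 and 19974 BPM in mutants. Mutant 3382 lay just above the lowest control, control 3586, and the other 3 mutants lay below every control. The means were 29978 ± 3449 and 21284 ± 3607 BPM (SD, n = 4 each). As a percentage of the bases outside small RNA genes, the members took 3.93, 4.87, 3.17 and 4.50% in controls and 3.64, 3.80, 4.03 and 2.70% in mutants. The means were 4.12 ± 0.740% and 3.54 ± 0.584% (SD, n = 4 each), and 3 of the 4 mutants lay within the control range. The share of bases in small RNA genes averaged 26.3 ± 8.02% in controls and 38.6 ± 14.2% in mutants (SD, n = 4 each; exact permutation p = 0.229). A fit with that share as a covariate is given further below, and the share as a cause of the members' values was not tested.

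**Figure D2:**
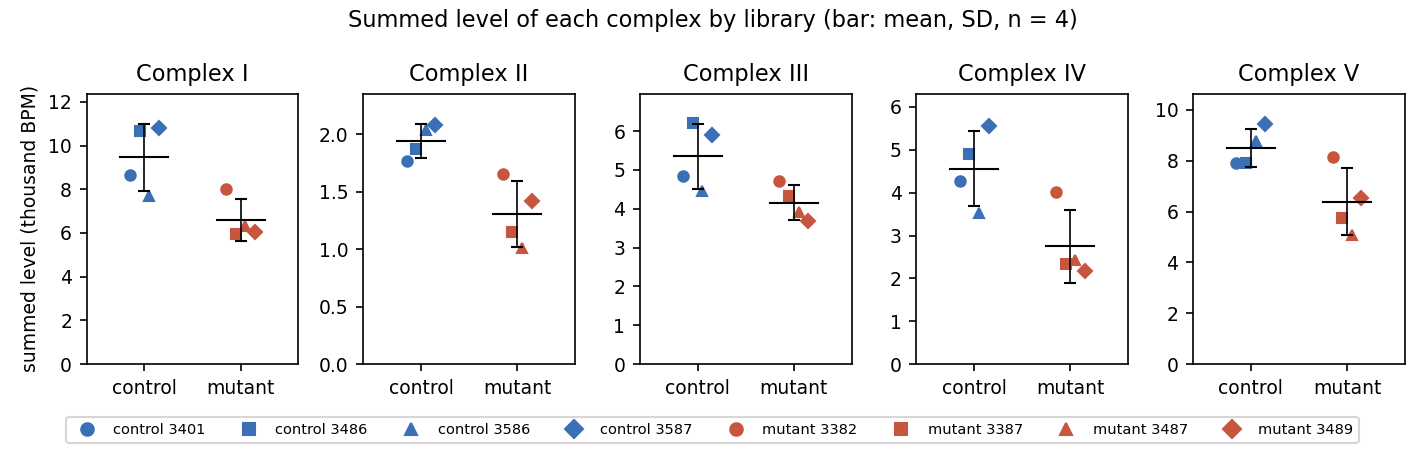
Summed level of the members of each complex in each library, in BPM (axis in units of 1000), with controls in blue, mutants in red, and lines for the mean and SD (n = 4 each). The groups of complex II do not overlap, and in complex IV mutant 3382, at 4022 BPM, sits apart from the other mutants.

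Complex I took 8656, 10681, 7706 and 10796 BPM in controls and 8009, 5969.6, 6319 and 6034 BPM in mutants. Complex II took 1766, 1870.5, 2037 and 2080.4 BPM in controls and 1651, 1151, 1007 and 1422 BPM in mutants. Complexes I, III, IV and V overlapped between groups. Complex II did not, also as a share of bases outside small RNA genes, at 0.243 to 0.287% in controls and 0.192 to 0.225% in mutants. Complex IV took 4265, 4899, 3514 and 5554 BPM in controls and 4022, 2339, 2439.98 and 2177 BPM in mutants, so that mutant 3382 lay above the lowest control. The median log2 fold changes were -0.59 for complex I, -0.49 for complex II, -0.43 for complex III, -0.67 for complex IV and -0.56 for complex V. With totals taken without small RNA genes, the medians for complexes I to V were -0.34, -0.21, -0.15, -0.40 and -0.30. The median of all genes was then 0.034, against -0.23 before.

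Promoter sequences were looked up in RefSeq tables of the mm10 build, which gave windows from 250 bases before to 50 bases after the start for 74 of the 93 members. The windows below show the starts of members that carry the comparison: the member of each complex with the smallest p that had a window, cytochrome c, and Ndufb2, the well-covered member whose mutants lay highest relative to controls. Capitals mark matches to 3 motifs on either strand: CGCANGCG for NRF1, CCGGAAG for the ETS family that includes GABP, and ATGGCG for YY1. These factors are known as regulators of nuclear genes for mitochondria. The windows lie at chr6:11907401-11907700 on the minus strand (Ndufa4), chr4:140961021-140961320 on the plus strand (Sdhb), chr11:4704295-4704594 on the minus strand (Uqcr10), chr9:79759804-79760103 on the minus strand (Cox7a2), chr5:145191492-145191791 on the minus strand (Atp5j2), chr6:50566520-50566819 on the minus strand (Cycs) and chr6:39592315-39592614 on the plus strand (Ndufb2).
Ndufa4: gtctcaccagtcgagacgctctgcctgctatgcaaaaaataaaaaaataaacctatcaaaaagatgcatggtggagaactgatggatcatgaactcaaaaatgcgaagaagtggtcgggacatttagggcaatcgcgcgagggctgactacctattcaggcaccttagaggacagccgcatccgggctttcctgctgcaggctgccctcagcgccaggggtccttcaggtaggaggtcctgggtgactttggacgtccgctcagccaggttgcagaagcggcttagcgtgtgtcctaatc
Sdhb: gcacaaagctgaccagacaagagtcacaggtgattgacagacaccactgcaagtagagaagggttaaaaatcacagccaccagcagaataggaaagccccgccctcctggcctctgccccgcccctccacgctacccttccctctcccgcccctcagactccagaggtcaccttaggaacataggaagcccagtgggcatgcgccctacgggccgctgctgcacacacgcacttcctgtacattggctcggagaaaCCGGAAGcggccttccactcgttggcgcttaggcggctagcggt
Uqcr10: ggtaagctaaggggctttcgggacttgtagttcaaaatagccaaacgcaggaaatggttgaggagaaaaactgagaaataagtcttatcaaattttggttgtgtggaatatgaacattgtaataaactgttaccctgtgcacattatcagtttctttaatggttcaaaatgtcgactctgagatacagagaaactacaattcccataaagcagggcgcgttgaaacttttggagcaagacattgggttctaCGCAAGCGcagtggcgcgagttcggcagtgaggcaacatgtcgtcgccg
Cox7a2: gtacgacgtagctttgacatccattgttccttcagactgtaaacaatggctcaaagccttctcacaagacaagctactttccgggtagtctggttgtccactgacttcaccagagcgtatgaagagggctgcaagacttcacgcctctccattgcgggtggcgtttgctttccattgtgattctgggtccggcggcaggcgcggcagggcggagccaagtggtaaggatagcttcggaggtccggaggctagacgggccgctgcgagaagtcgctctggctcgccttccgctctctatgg
Atp5j2: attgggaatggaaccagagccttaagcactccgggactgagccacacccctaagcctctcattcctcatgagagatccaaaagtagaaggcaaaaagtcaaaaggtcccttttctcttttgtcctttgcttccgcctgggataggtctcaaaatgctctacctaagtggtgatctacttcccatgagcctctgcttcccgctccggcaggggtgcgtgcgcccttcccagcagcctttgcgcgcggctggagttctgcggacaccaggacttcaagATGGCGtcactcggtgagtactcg
Cycs: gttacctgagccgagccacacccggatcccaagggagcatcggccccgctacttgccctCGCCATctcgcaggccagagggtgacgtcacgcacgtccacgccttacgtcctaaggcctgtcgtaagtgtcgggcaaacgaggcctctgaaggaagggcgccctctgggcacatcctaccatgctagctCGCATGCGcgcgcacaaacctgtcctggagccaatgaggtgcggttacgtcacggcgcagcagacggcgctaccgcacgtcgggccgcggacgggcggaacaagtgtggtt
Ndufb2: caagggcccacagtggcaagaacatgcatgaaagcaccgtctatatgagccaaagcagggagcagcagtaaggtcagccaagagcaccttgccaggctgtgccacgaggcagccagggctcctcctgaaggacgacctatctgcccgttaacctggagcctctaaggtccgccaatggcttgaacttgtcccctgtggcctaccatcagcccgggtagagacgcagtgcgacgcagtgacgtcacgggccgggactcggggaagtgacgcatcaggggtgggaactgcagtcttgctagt

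The Sdhb window held 1 ETS match, that of Uqcr10 held 1 NRF1 match and that of Atp5j2 held 1 YY1 match at the end nearest the gene. Cycs held 1 NRF1 match and 1 YY1 match, the latter on the opposite strand. No match to the 3 motifs was found in the windows of Ndufa4, Cox7a2 and Ndufb2. Over the 74 windows, NRF1 letters were found in 27 (36.5%), against 8.42% of windows of 27025 genes. ETS letters were found in 16 (21.6%, against 9.12%) and YY1 letters in 20 (27.0%, against 9.24%). At least 1 of the 3 was found in 51 members (68.9%), against 22.3% of all windows. TATAAA, by contrast, was found in 7 members (9.46%) and in 14.2% of all windows. The median log2 fold change was -0.59 with and -0.62 without an NRF1 match, -0.70 and -0.60 for ETS, and -0.68 and -0.57 for YY1. These are letter matches and describe the windows only.

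Complex I begins with its core, the subunits that bind FMN and the iron-sulphur clusters. All 7 core genes had negative log2 fold changes, with a median of -0.64, and 4 had an unadjusted p under 0.05. Over all genes tested, 71.5% were negative and 4.42% were lower at that p. Ndufs1, the largest iron-sulphur subunit, measured 217, 133, 309 and 203 BPM in controls and 149.8, 91.5, 74.0 and 178 BPM in mutants. Mutants 3382 and 3489 were within the controls and the other 2 mutants below them, at a log2 fold change of -0.83 (SE 0.35, limma adjusted p = 0.720). Ndufs7, which carries the last cluster before ubiquinone, measured 76.0, 88.0, 100.2 and 98.8 BPM in controls and 89.0, 27.3, 38.5 and 45.6 BPM in mutants. Mutant 3382 was as high as the controls and the other 3 mutants were far below, at -0.97 (SE 0.36, limma adjusted p = 0.588).

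Ndufv2, a subunit of the NADH-binding module, measured 325, 465, 312 and 365 BPM in controls and 229, 225, 262 and 215 BPM in mutants. Its groups did not overlap, at a log2 fold change of -0.64 (SE 0.28, limma adjusted p = 0.757). Ndufv1, its FMN-binding partner, measured 388, 334, 411 and 494 BPM in controls and 509.8, 395, 198 and 349 BPM in mutants. Here the highest library was mutant 3382 and the lowest was mutant 3487, at -0.23 (SE 0.32, limma adjusted p = 0.913), and the sign of Ndufv1 turned when mutant 3487 was left out (0.036). Ndufs3 and Ndufs8, also of the core, were at log2 fold changes of -0.46 and -0.57.

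The 29 accessory subunits of complex I, which surround the core, had a median log2 fold change of -0.63. Of these, 27 were negative, against 71.5% of all genes tested. An unadjusted p under 0.05 was found for 14, all lower, against 4.42% of all genes tested. Ndufa4, at chr6:11900292-11907497 on the minus strand, measured 637, 803, 485 and 566 BPM in controls and 389.6, 225, 303 and 213 BPM in mutants. Every mutant was below every control, by means of 623 ± 136 BPM in controls and 282 ± 81.8 BPM in mutants (SD, n = 4 each). Its log2 fold change of -1.16 (SE 0.31, limma adjusted p = 0.195) had a 95% interval of -1.79 to -0.52. Ndufa6, an accessory subunit of the LYR protein family, measured 416, 406, 396 and 600.0 BPM in controls and 243, 187, 173 and 254 BPM in mutants. Its groups also stood apart, with control 3587 above the rest, at a log2 fold change of -1.08 (SE 0.29, limma adjusted p = 0.225). Ndufa3, a small membrane-arm subunit, measured 62.6, 88.1, 52.7 and 71.9 BPM in controls and 40.7, 23.3, 24.9 and 27.9 BPM in mutants. Every mutant was below every control, at -1.22 (SE 0.33, limma adjusted p = 0.236).

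Further accessory genes with unadjusted p under 0.05 were Ndufb3 at -1.15 (SE 0.35, limma adjusted p = 0.369) and Ndufb11 at -1.01 (SE 0.34, limma adjusted p = 0.511), named here after their values were seen. Ndufa13, the subunit also known as GRIM-19, was at -0.96 (SE 0.31, limma adjusted p = 0.448) and shares 375 exon bases with Tssk6 on the opposite strand. The most abundant members of the complex overlapped between groups. Ndufb9 measured 1017, 1403, 809 and 1532 BPM in controls and 889.9, 814, 802 and 742 BPM in mutants, and its mutants were near the lowest control, at -0.51 (SE 0.30, limma adjusted p = 0.835). Ndufb8 measured 988, 1526, 717 and 1393 BPM in controls and 1167, 899, 1004 and 714 BPM in mutants, with 3 mutants among the controls and mutant 3489 just below them, at -0.25 (SE 0.32, limma adjusted p = 0.907). The sign of Ndufb8 turned with totals taken without small RNA genes (0.036).

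Ndufb2 stood apart from its complex, and was chosen after its values were seen. It measured 337, 399, 209 and 375 BPM in controls and 268, 505, 781 and 571 BPM in mutants. Mutants 3387, 3487 and 3489 were above every control and mutant 3382 was not. The log2 fold change was 0.63 (SE 0.35, limma adjusted p = 0.828), with a 95% interval of -0.094 to 1.35. Ndufb2 shares 146 exon bases with Braf on the opposite strand, and 145 with the predicted gene Gm42420 on its own strand. Since strand handling is not given in the sources used here, bases of these genes cannot be told apart. The other positive accessory gene, Ndufa12, measured 20.1, 26.2, 15.4 and 20.9 BPM in controls and 32.3, 16.6, 21.0 and 25.5 BPM in mutants and was at 0.18 (SE 0.37, limma adjusted p = 0.940).

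The 7 Ndufaf assembly factors, which build complex I without remaining in it, had a median log2 fold change of -0.35. All 7 were negative, against 71.5% of all genes tested, and none had an unadjusted p under 0.05. Ndufaf4 measured 55.2, 63.5, 60.9 and 65.9 BPM in controls and 41.8, 22.7, 43.4 and 48.7 BPM in mutants. Its groups did not overlap, at -0.69 (SE 0.33, limma adjusted p = 0.799).

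Complex II is succinate dehydrogenase, shared with the citric acid cycle and built of nuclear-encoded subunits only. Sdha, the flavoprotein, measured 349.8, 193, 724 and 411 BPM in controls and 393, 211, 169.8 and 449.7 BPM in mutants. Control 3586 was the highest of all and the groups overlapped broadly, at a log2 fold change of -0.41 (SE 0.40, limma adjusted p = 0.891). Sdhb, the iron-sulphur subunit whose promoter is printed above, measured 666, 657, 603 and 775 BPM in controls and 563, 299, 279 and 365 BPM in mutants. All mutants were below all controls, with mutant 3382 nearest to them. The means were 675 ± 72.4 BPM in controls and 376 ± 129.9 BPM in mutants (SD, n = 4 each), with a log2 fold change of -0.89 (SE 0.30, limma adjusted p = 0.527).

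The anchors that hold complex II in the membrane were also lower on average. Sdhc measured 246, 312, 278 and 275 BPM in controls and 251, 177, 155 and 175 BPM in mutants. Mutant 3382 exceeded the lowest control and the others did not, at -0.57 (SE 0.29, limma adjusted p = 0.806). Sdhd measured 505, 708, 433 and 619.9 BPM in controls and 444, 463, 404 and 431 BPM in mutants. Its mutants lay together at the lower edge of the controls, at -0.35 (SE 0.29, limma adjusted p = 0.861). The sign of Sdha turned when mutants 3387 and 3487 were left out (0.16) or the small RNA share was a covariate (0.31).

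In complex III, electrons pass through the Rieske protein Uqcrfs1 and cytochrome c1, encoded by Cyc1. Uqcrfs1 measured 278, 261, 313 and 296 BPM in controls and 229.9, 154, 163 and 206 BPM in mutants. Every mutant was below every control, at a log2 fold change of -0.62 (SE 0.28, limma adjusted p = 0.783). Cyc1 measured 465, 538, 479.7 and 582 BPM in controls and 519, 395, 349 and 426 BPM in mutants. Mutant 3382 was within the controls and the other mutants below them, at -0.30 (SE 0.28, limma adjusted p = 0.890).

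Uqcr10, the small subunit whose promoter is printed above, measured 619.6, 973, 662 and 634 BPM in controls and 434, 250.1, 420.3 and 275 BPM in mutants. All mutants were lower and control 3486 was far above the other controls, at -1.08 (SE 0.31, limma adjusted p = 0.262). Uqcrb, which sits near a ubiquinone site, was at -0.75 (SE 0.32, limma adjusted p = 0.722) and has 3 near-identical copies elsewhere in the genome. Uqcr11 was at -0.84 (SE 0.37, limma adjusted p = 0.757). Of the core proteins, Uqcrc1 was at -0.43 (SE 0.29, limma adjusted p = 0.857). Uqcrc2 measured 535, 594, 566 and 663 BPM in controls and 615, 617, 475 and 595 BPM in mutants. In Uqcrc2 the mutants lay among the controls except mutant 3487, at -0.038 (SE 0.28, limma adjusted p = 0.986) with an interval of -0.62 to 0.55.

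Uqcrh, the hinge protein, was the only complex III gene with a positive log2 fold change. It measured 930.1, 1423, 636 and 1368 BPM in controls and 947, 1469, 1137 and 918 BPM in mutants. The groups covered much the same range, at 0.083 (SE 0.33, limma adjusted p = 0.971) with an interval of -0.60 to 0.77. That sign turned when control 3586 (-0.15) or mutant 3387 (-0.057) was left out. Uqcrq, the other abundant member, was at -0.43 (SE 0.29, limma adjusted p = 0.857).

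Cycs, the mobile carrier between complexes III and IV, measured 169, 175, 145 and 159.7 BPM in controls and 97.1, 89.6, 103 and 116 BPM in mutants. Its controls lay close together and all mutants were below them. The means were 162 ± 12.9 BPM in controls and 101 ± 11.1 BPM in mutants (SD, n = 4 each), with a log2 fold change of -0.68 (SE 0.28, limma adjusted p = 0.716). The Cycs to Cyc1 log2 ratio differed by -0.38, mutants minus controls (exact permutation p = 0.0571, adjusted over 10 pairs 0.143).

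Complex IV is built on a mitochondrially encoded core that the nuclear subunits surround. Its 11 ubiquitous nuclear subunits were all negative, with a median log2 fold change of -0.76, and 7 had an unadjusted p under 0.05. For all genes tested the shares were 71.5% negative and 4.42% lower at that p. Cox6c, at chr15:35925886-35938246 on the minus strand, measured 131, 132, 90.9 and 210.5 BPM in controls and 127, 32.4, 25.4 and 37.5 BPM in mutants. Mutant 3382 lay within the controls and the other 3 mutants were several times lower. The log2 fold change was -1.57 (SE 0.43, limma adjusted p = 0.225), the most negative among the tested members, with an interval of -2.47 to -0.68. Without mutant 3382 Cox6c was called at -2.07 (limma adjusted p = 0.0200), where 0.0392% of all genes were called lower. Cox6c shares 250 exon bases with Vps13b on the opposite strand.

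**Figure D3:**
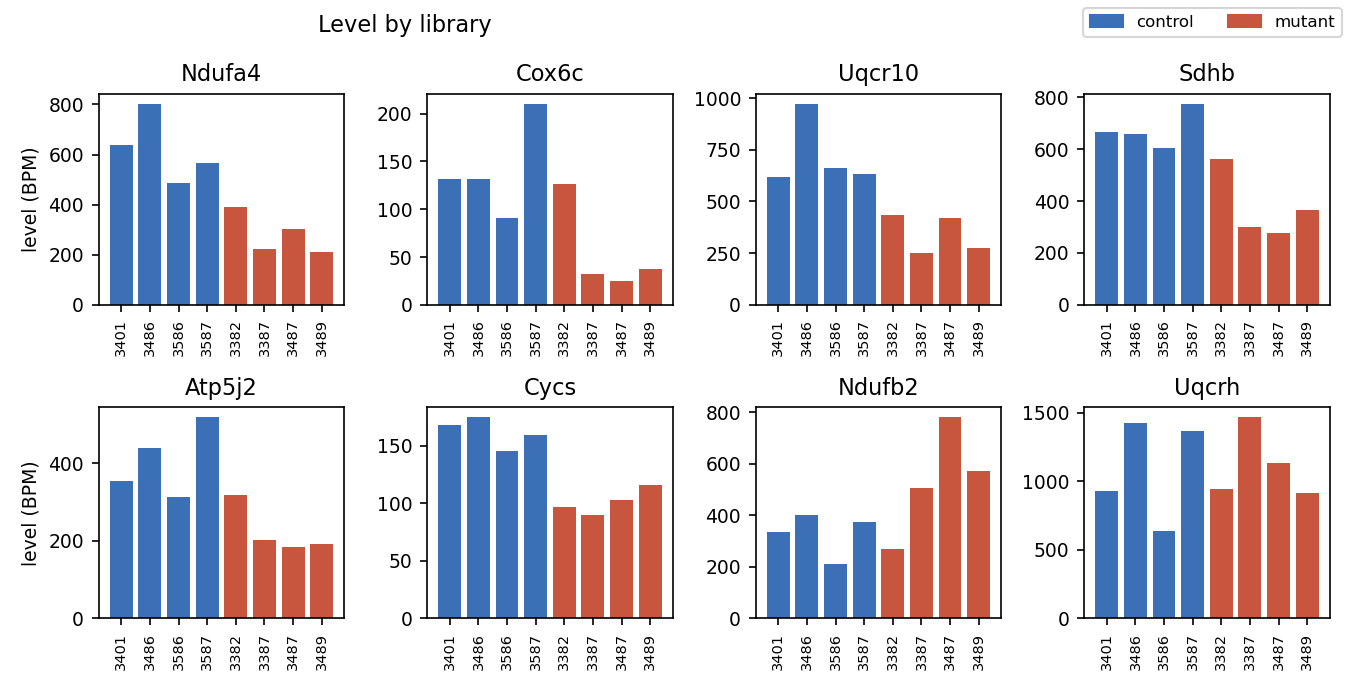
Level of 8 members in each library, in BPM, with 1 bar for each library, controls in blue and mutants in red. Mutant 3382 lies with the controls for Cox6c (127 BPM, against 25.4 to 37.5 BPM in the other mutants), and every mutant is below every control for Ndufa4, Uqcr10, Sdhb and Cycs. For Ndufb2 the mutants other than 3382 are above every control, and mutant 3382 lies within the controls.

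Cox7a2, a subunit with tissue isoforms, measured 347, 365, 269 and 546 BPM in controls and 286, 171, 171 and 122 BPM in mutants. Mutant 3382 exceeded the lowest control and the other mutants were lower, at -1.04 (SE 0.33, limma adjusted p = 0.416). Cox6a1 measured 665, 678, 522 and 553 BPM in controls and 564, 239, 224 and 280.4 BPM in mutants. Again mutant 3382 was within the controls, at -0.98 (SE 0.32, limma adjusted p = 0.486). Cox6b1 measured 195, 266, 214 and 185 BPM in controls and 141, 116, 133 and 91.7 BPM in mutants. Here all 4 mutants were below the controls, at -0.84 (SE 0.29, limma adjusted p = 0.553). Cox8a likewise separated, at -0.76 (SE 0.29, limma adjusted p = 0.598). Cox4i1, the largest nuclear subunit, measured 1024, 1278, 879 and 1534 BPM in controls and 1020.3, 599.6, 608 and 633 BPM in mutants. Mutant 3382 lay with the controls and the other 3 lay together below them, at -0.73 (SE 0.31, limma adjusted p = 0.731).

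Cox7b, an abundant member, was at -0.64 (SE 0.33, limma adjusted p = 0.811), Cox5a at -0.59 (SE 0.34, limma adjusted p = 0.835) and Cox5b at -0.57 (SE 0.36, limma adjusted p = 0.849). Cox7a2l, known for its part in joining complexes III and IV into supercomplexes, measured 119, 82.1, 129.6 and 167 BPM in controls and 143, 129.6, 68.9 and 138 BPM in mutants. Its mutants lay within the controls except mutant 3487, at -0.064 (SE 0.33, limma adjusted p = 0.979), and its sign turned under median scaling (0.16). The Cox7a2l to Cox7a2 log2 ratio was 0.98 higher in mutants (exact 2-sided permutation p = 0.0571, adjusted over 10 pairs 0.143).

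Several members are isoforms known mainly from muscle, brown fat, lung or testis, and 6 of the 8 were tested. Over those 6 the median log2 fold change was -0.15, with 3 negative, as a description of members that passed the filter. Without them, 82 of 85 members were negative, against 71.5% of all genes tested. Cox6b2, a testis isoform, measured 0.242, 0.745, 0.419 and 1.62 BPM in controls and 3.31, 4.61, 1.09 and 2.58 BPM in mutants. It was the member with an unadjusted p under 0.05 and a higher level in mutants, but 1 control alone reached 1 BPM, so it passed the filter on low values through the mutants and its direction is a description only. The only overlap was mutant 3487 below control 3587, all at levels close to the filter of 1 BPM, at 1.12 (SE 0.47, limma adjusted p = 0.715). The testis germ cell markers Prm1, Prm2, Tnp1 and Ldhc were at 0 in all 8 libraries. Cox8b, an isoform of muscle and brown fat, measured 0.627, 1.11, 3.17 and 0.463 BPM in controls and 2.78, 1.30, 15.3 and 1.59 BPM in mutants. Mutant 3487 was far above the rest, at 1.03 (SE 0.59, limma adjusted p = 0.835). The 4 brown fat markers summed to between 0 and 15.8 BPM in controls and between 0.126 and 21.6 BPM in mutants, and their part in Cox8b was not tested. Among them Ucp1, which defines brown fat, measured 0, 0.949, 5.02 and 0 BPM in controls and 0, 1.40, 4.67 and 0 BPM in mutants. Control 3586 and mutant 3487 had the highest Cox8b of their groups. Mutant 3387, with Ucp1 at 1.40 BPM, had the lowest Cox8b of the mutants, below mutants 3382 and 3489 with Ucp1 at 0. The 6 muscle markers summed to at most 1.62 BPM in controls and 2.59 BPM in mutants, with Mb and Myh4 at 0.

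Cox4i2, the isoform known from lung and induced by low oxygen, measured 2.10, 2.26, 2.35 and 0.307 BPM in controls and 4.66, 2.06, 0.703 and 2.75 BPM in mutants. Its values were close to the filter of 1 BPM in both groups, at 0.33 (SE 0.50, limma adjusted p = 0.919). Cox7a1 was at -0.64 (SE 0.41, limma adjusted p = 0.857), Cox6a2 at -0.69 (SE 0.46, limma adjusted p = 0.857), and Ndufa4l2, which is induced by hypoxia, at -0.76 (SE 0.44, limma adjusted p = 0.835). Cox6a2 passed the filter on low values mostly through the controls, so its direction and its ratio to Cox6a1 are descriptions only. Within libraries, the log2 ratio of the 2 genes of a pair was tested for 10 pairs. These are isoforms with their ubiquitous partners, and also Cycs with Cyc1, Cox7a2l with Cox7a2 and the c ring genes with Atp5g3. The smallest exact permutation p that 4 against 4 libraries allow is 0.0286. The Cox6b2 to Cox6b1 ratio was 1.96 higher in mutants (-5.03 ± 0.70 against -6.99 ± 0.56, SD, n = 4 each), with every mutant above every control and an exact permutation p of 0.0286, adjusted to 0.143. With a pseudocount of 0.1 that separation was lost, since mutant 3487 (-6.80) lay below control 3587 (-6.75), and the exact permutation p was 0.0571. Because Cox6b2 passed the filter on low values through the mutants, its ratio is a description only, and no result is drawn from its p-values. The Cox8b to Cox8a ratio was 1.79 higher (exact permutation p = 0.0571, adjusted 0.143) and the Cox4i2 to Cox4i1 ratio 1.06 higher (0.0857, adjusted 0.171). Without mutant 3487 the Cox8b to Cox8a difference was 1.14, and this ratio is likewise a description only, since Cox8b passed the filter through the mutants. The Ndufa4l2 to Ndufa4, Cox7a1 to Cox7a2 and Cox6a2 to Cox6a1 ratios differed by 0.39, 0.41 and 0.29, with adjusted exact permutation p of 0.508, 0.238 and 0.629, and the last turned to -0.64 with a pseudocount of 0.1. No pair passed the adjusted threshold, which a pair at the smallest possible p could not reach on its own after adjustment over 10 pairs.

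**Figure D4:**
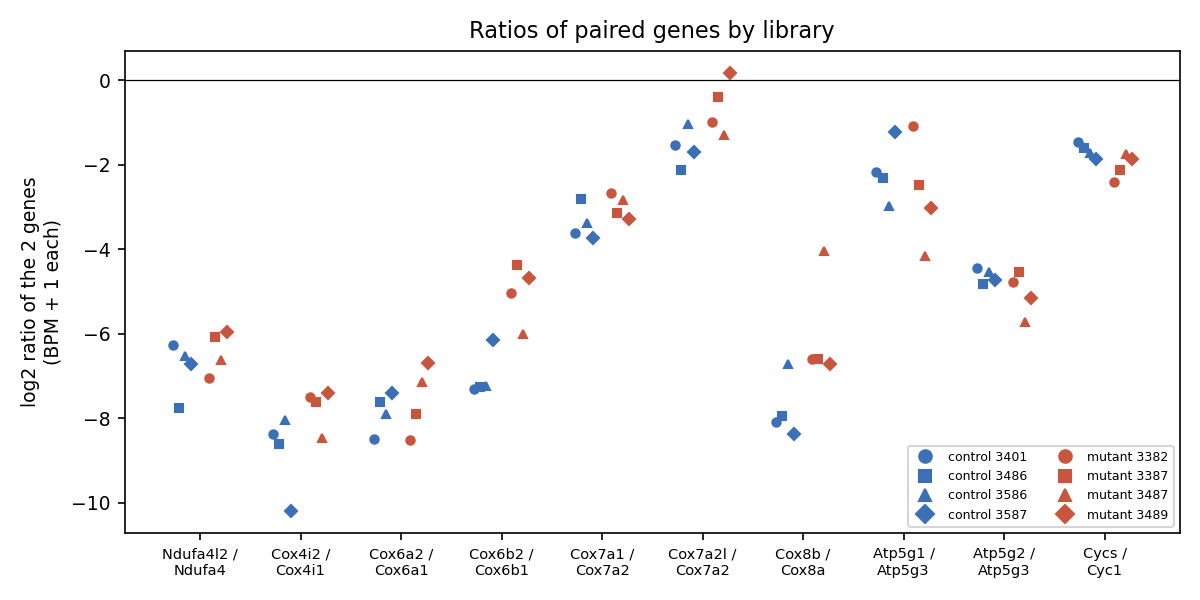
Log2 ratio of the 2 genes of each of 10 pairs in each library, with 1 added to each BPM value, controls in blue and mutants in red. The Cox6b2 to Cox6b1 ratio is higher in every mutant than in any control, at -6.00 to -4.38 against -7.30 to -6.15, and the other pairs overlap, as that pair does with 0.1 added in place of 1. Cox6b2 and Cox8b passed the filter on low values through the mutants and Cox6a2 mostly through the controls, so their ratios are descriptions only.

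All 17 members of complex V were negative, with a median log2 fold change of -0.56, and 3 had an unadjusted p under 0.05. Of all genes tested, 71.5% were negative and 4.42% were lower at that p. The 5 genes of the F1 head, where ATP is made, had a median of -0.36, and none of them had a p under 0.05. Atp5b, the catalytic beta subunit, measured 2694, 2278, 3446 and 2856 BPM in controls and 2637, 1976, 1574 and 2702 BPM in mutants. Control 3586 was highest and mutants 3387 and 3487 were lowest, with the others mixed, at -0.36 (SE 0.32, limma adjusted p = 0.876). Atp5a1, the alpha subunit, was at -0.45 (SE 0.34, limma adjusted p = 0.857), Atp5c1 at -0.26 (SE 0.34, limma adjusted p = 0.907) and Atp5e at -0.64 (SE 0.33, limma adjusted p = 0.817).

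The 3 small membrane subunits had a median of -0.87, and 2 had a p under 0.05. Atp5j2 (subunit f), whose promoter is printed above, measured 355, 439.9, 312 and 519.9 BPM in controls and 319.9, 202, 183 and 191 BPM in mutants. Mutant 3382 lay just above the lowest control and the other mutants were well below, at -0.87 (SE 0.30, limma adjusted p = 0.553). Atp5k (subunit e) measured 7.85, 10.9, 5.96 and 15.7 BPM in controls and 8.80, 3.30, 2.11 and 2.27 BPM in mutants. The order was the same at a far lower level, at -1.21 (SE 0.49, limma adjusted p = 0.672). In the peripheral stalk, which holds the head still, the median over 4 genes was -0.65. Atp5h was at -0.79 (SE 0.33, limma adjusted p = 0.716) and has 3 near-identical copies. Atp5o measured 117, 138, 101 and 149.9 BPM in controls and 169, 70.8, 54.9 and 55.5 BPM in mutants. Mutant 3382 was the highest library and the other mutants were the lowest, at -0.68 (SE 0.36, limma adjusted p = 0.821).

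The c ring that turns with the proton flow is encoded by 3 genes with the same mature protein. Atp5g3 measured 381, 432, 422 and 381 BPM in controls and 404, 310.5, 379.7 and 382 BPM in mutants. Its groups overlapped in a narrow range, at -0.13 (SE 0.28, limma adjusted p = 0.941), and the sign turned under median scaling (0.089). Atp5g1 measured 83.9, 85.3, 52.8 and 163 BPM in controls and 189, 54.9, 20.1 and 45.7 BPM in mutants. Mutant 3382 was the highest library and mutant 3487 the lowest, at -0.66 (SE 0.50, limma adjusted p = 0.857). Atp5g2, whose host transcript contains Mir688 and which has 2 near-identical copies, was at -0.55 (SE 0.40, limma adjusted p = 0.857). The Atp5g1 to Atp5g3 and Atp5g2 to Atp5g3 log2 ratios differed by -0.52 and -0.42 (adjusted exact permutation p = 0.508 and 0.286).

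Per kilobase of annotated transcript, control levels ran from 2058 BPM per kb for Atp5e and 1991 for Uqcrh down to 1.29 for Cox6b2 among the tested members. Just below the top were Ndufb8 (1700.3 ± 547 BPM per kb, SD, n = 4), Ndufb9 (1691 ± 476), Uqcr10 (1664 ± 388), Cox4i1 (1541 ± 377) and Atp5b (1471 ± 253), which do not differ beyond their spread. Among tested members, the isoforms Cox4i2 and Cox8b also lay near the bottom, at 2.40 and 3.73 BPM per kb. Cox7a1, another isoform of other tissues, did not, and lay above the c ring gene Atp5g1. These values use the longest principal transcript of each gene, which can be longer than the form present.

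Most members are short, and the difference between groups varied with transcript length over the whole table. The median annotated length was 908 bases for the members (360.0 to 4715) and 3052 bases for the 12832 tested genes that are not small RNA genes. Among all genes of over 500 and up to 750 bases, the median log2 fold change was -0.44 and 21.6% had an unadjusted p under 0.05 and were lower. The 30 members of that length had a median of -0.76 and 17 had such a p. Among all genes over 4000 bases the values were -0.21 and 2.18%. The 30 members of over 1000 and up to 2000 bases had a median of -0.43, against -0.26 for all genes of that length.

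Libraries of the same group differed in this trend. In control 3586 the median log2 ratio to the control mean ran from -0.27 in genes up to 500 bases to 0.64 in genes over 4000 bases, and in mutant 3489 from -0.51 to 0.43. In control 3486 it ran the other way, from 0.20 to -0.53. With the trend of each library removed, an alternative chosen after seeing the data, the members' median log2 fold change was -0.28 and 23 were lower at an unadjusted p under 0.05, against 5.03% of all genes. The median of all genes in that fit was -0.0070. Cox6c was then called at -1.20 (SE 0.28, limma adjusted p = 0.0449), where 0.249% of genes were called lower.

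**Figure D5:**
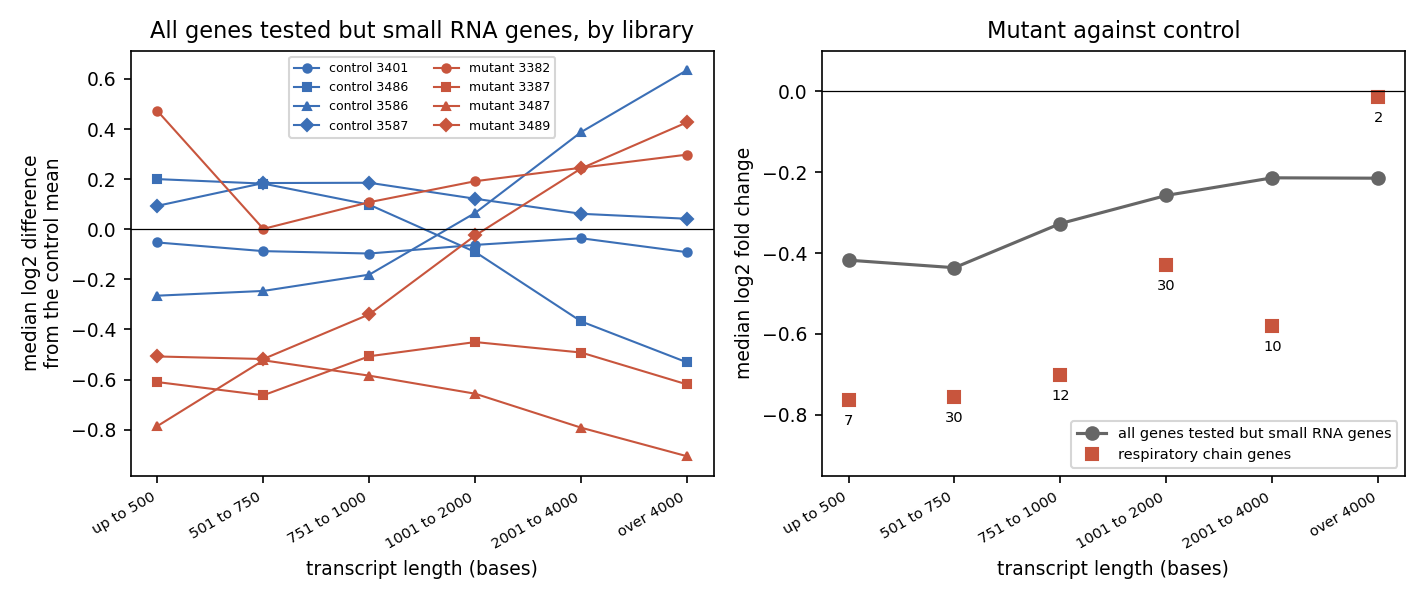
Left, median log2 difference from the control mean in each library, and right, median log2 fold change of mutants over controls, both by class of transcript length in bases, with the number of members beside each square. The median is lower for short genes than for long ones, and members of over 500 and up to 750 bases (-0.76) lie below all genes of that length (-0.44).

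Near-identical copies and overlapping genes could divert or add bases. A copy of at least 95% identity over at least 50% of the transcript was found for 10 members, whose median log2 fold change was -0.77, against -0.59 without one. The copies were most numerous for Atp5l (9). For 32 members that share exon bases with another gene the median was -0.60, as it was for the 61 that share none, and 29 of the 32 overlapped on the opposite strand. Levels of these genes are uncertain to the extent that the counting split such bases.

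Genes that serve the chain without matching the name rule were read from lists. Of 36 tested assembly factors outside the rule, 33 were negative, with a median log2 fold change of -0.41, and 3 had an unadjusted p under 0.05. Among all genes tested, 71.5% were negative and 4.42% were lower at that p. Coa6, a copper-handling factor of complex IV, was at -0.89 (SE 0.31, limma adjusted p = 0.560) and Cmc1, which binds an early complex IV intermediate, at -1.15 (SE 0.41, limma adjusted p = 0.562). Of 13 genes of coenzyme Q synthesis, 12 were negative, with a median of -0.29. Coq3, a methyltransferase of that pathway, was at -0.60 (SE 0.34, limma adjusted p = 0.835) and Adck3 at -0.50 (SE 0.32, limma adjusted p = 0.857). No gene of either list passed the adjusted threshold.

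Among 16 regulators of mitochondrial gene expression, 11 were negative, with a median of -0.26, near that of all genes. Tfb1m, a methyltransferase of mitochondrial ribosomal RNA, was at -0.90 (SE 0.42, limma adjusted p = 0.788), and Gabpb1, a partner of the ETS factor Gabpa, at -0.66 (SE 0.44, limma adjusted p = 0.857). Genes used as measures of mitochondrial content were negative in 16 of 16, against 71.5% of all genes tested, with a median of -0.37. Hspe1, a mitochondrial chaperonin, was at -1.03 (SE 0.38, limma adjusted p = 0.572) and Phb2, a prohibitin of the inner membrane, at -0.58 (SE 0.35, limma adjusted p = 0.840).

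No marker of a kidney cell type passed the adjusted threshold, and the marker values that follow are descriptions. All 10 proximal tubule markers were negative, with a median of -0.48, and 1 had an unadjusted p under 0.05. By comparison, 71.5% of all genes tested were negative and 4.42% were lower at that p. The 4 markers of the distal convoluted tubule, which is also rich in mitochondria, had a median of -1.05 and summed to 300.0 to 641 BPM in controls and 131 to 338 BPM in mutants. All 7 tested macrophage markers were positive, with a median of 1.27, and their sums ranged from 105 to 195 BPM in controls and 193 to 1496 BPM in mutants. Mutants 3382 and 3489 were highest, at 1496 and 764 BPM, and mutant 3487 lay within the controls. Fibroblast markers had a median of 0.55, with sums of 259 to 318 BPM and 188 to 1489 BPM. Here too mutants 3382 and 3489 were highest, and mutant 3487, at 188 BPM, lay below every control. The medians were -0.23 for thick ascending limb, -0.26 for intercalated cells, -0.48 for podocytes and -0.63 for endothelium, and 0.071 for principal cells and 0.63 for pericytes and smooth muscle. The part of these cell types in the members' values was not tested.

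With the small RNA share of each library as a covariate, limma called 8 members lower, where 0.575% of all genes were called lower. These were Ndufa4 (-1.23, adjusted p = 0.0171), Atp5e (-1.11), Ndufa3 (-1.14), Uqcr10 (-1.15), Cox6b1 (-0.93), Ndufa7 (-0.98), Ndufa6 (-0.89) and Ndufb3 (-1.03), with limma adjusted p from 0.0171 to 0.0430. The covariate fit also called 411 of 13054 genes higher, none of them a member. It moved the median log2 fold change of all genes from -0.23 to 0.25, with the members at -0.49, a distance of -0.74. With array weights, which count less on libraries that fit poorly, Cox6c (-1.63, adjusted p = 0.0329) and Ndufa4 (-1.22, adjusted p = 0.0365) were called, where limma called 0.199% of all genes in that direction.

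In the authors' deposited table, 34 of the 93 members had a p under 0.05, 33 of them lower in mutants. The same table had such a p for 4.505% of all 23219 genes. The authors' deposited table gave a mutant to control ratio below 1 for 87 members (93.55%) and for 72.25% of all genes.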

How the data were processed

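Total RNA of whole kidney was depleted of ribosomal RNA and made into Ion Total RNA-seq libraries, per the labels' protocols. The authors deposited 1 table of 23219 genes and 8 libraries with no unit in its header, to which they added means, ratios and p-values. From its steps the deposited table was taken to hold coverage signal: within 1e-06, 100% of values were whole multiples of their column's minimum, 0.0435% of positive values were 1 to 19 steps, and each column, as deposited after scaling to a common total, sums to about 280.0 megabases. Before scaling, a value was taken as the bases assigned to a gene plus 1, and no source states this. Dividing a column by its minimum undid the scaling and gave the library's own depth. The number of reads, and so the counting error, is unknown. Per the submitters' processing notes, bedtools and mm10 were used. The sources used here do not name an aligner, annotation, strand setting or rule for multiply mapped reads. Each deposited ratio divides the authors' mutant mean by their control mean. The deposited p-value is the authors' own and unadjusted. No library column was left out.

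BPM is bases per megabase. Because the unit was coverage and not counts, the planned test for normalized values was used: limma 3.58.1 under R 4.3.3, with the trend option, 2-sided, fitted to log2(BPM + 1). Benjamini-Hochberg adjustment ran over the 13054 genes that reached 1 BPM in at least 4 libraries, with a threshold of 0.05. The pseudocount understates changes of low genes. The fit was tested on simulated data. Ratios of paired genes used an exact 2-sided permutation test over libraries. Coordinates, transcript lengths and overlaps came from GENCODE vM21 (GRCm38, mm10), which matched 22886 symbols, copies from blastn 2.17.0, and promoter windows from RefSeq. Members, lists and tests were chosen with earlier results of these data known. Genes named were core subunits, both genes of each pair, the 3 of smallest p and 2 of highest level in each complex, and 2 of each pathway list. All others were named after their values were seen. Alternatives were leaving out libraries, other filters, pseudocount and scalings, the small RNA share as covariate and array weights.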

Additional observations from a re-analysis of the deposited data

Results flagged for a closer look

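In groups of 4, a library was singled out where its gap to the nearest of the other 3 divided by the group's range exceeded Dixon's 95% critical value. Chance does this in about 1 in 20 groups, and 18 of 174 groups examined did so, many of which share libraries. Mutant 3382 was far above the other mutants for Atp5j2 (319.9 BPM), Atp5o (169 BPM), Cox4i1 (1020.3 BPM), Cox6a1 (564 BPM), Cox6c (127 BPM) and Ndufb11 (240.5 BPM). The same library was far above for the sum of all members (26652 BPM) and of complex IV (4022 BPM).

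Mutant 3487 stood apart for Cox8b (15.3 BPM, the highest mutant), the Cox8b to Cox8a log2 ratio (-4.03) and Uqcrc2 (475 BPM, the lowest mutant). Among controls, 3587 was far above the others for Ndufa6 (600.0 BPM), Uqcrb (193 BPM), Cox8c (0.406 BPM, the others at 0) and the Cox6b2 to Cox6b1 log2 ratio (-6.15), and far below them for Cox4i2 (0.307 BPM). Control 3486 was far above for Uqcr10 (973 BPM), and control 3586 stood apart for the assembly factor Coa6 (70.7 BPM).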

How the results depend on the processing

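No paired analysis was possible because control and mutant libraries share no replicate numbers. Beside 0 members called lower, the small RNA share as covariate gave 8, array weights 2, removal of the length trend (chosen after seeing the data) 1, and leaving out each library 0 to 1. The 34 members lower at an unadjusted p under 0.05 (4.42% of all genes) numbered 18 to 46 with each library left out: 20 without control 3587 (2.21%), 18 without mutant 3387 (1.88%) and 46 without mutant 3382 (8.71%). They numbered 14 without mutants 3387 and 3487 (1.44%), 16 under median scaling (4.21%), 18 with totals without small RNA genes (2.57%) and 17 under quantile normalization (4.4%). The members' median log2 fold change of -0.60 was -0.34 with totals without small RNA genes and -0.28 with the length trend removed, and -0.74 to -0.51 with each library left out. The members' median relative to all genes, -0.37, was also -0.37 with totals without small RNA genes, where the median of all genes was 0.034. It was -0.27 with the length trend removed and -0.57 to -0.18 with each library left out. Without mutants 3387 and 3487 it was -0.63, and with the small RNA share as covariate -0.74. The Cox6a2 to Cox6a1 ratio turned to -0.64 with a pseudocount of 0.1, and the Atp5g1 to Atp5g3 ratio to 0.11 without mutants 3387 and 3487.

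Of 1232 values of named genes under alternatives, 37 turned sign and 14 passed the adjusted threshold. Of 69 named genes, 59 kept their sign under all 18 alternatives. The other 10, none of them called, turned as follows. Without mutants 3387 and 3487, Atp5g1 was at 0.073, Cox7a2l 0.22, Ndufv1 0.068, Sdha 0.16, Uqcrc2 0.042 and Uqcrh -0.15. Under median scaling Atp5g3 was at 0.089, Cox7a2l 0.16 and Uqcrc2 0.19. With totals without small RNA genes, Atp5c1 was at 0.026, Atp5g3 0.15, Cox7a2l 0.22, Ndufb8 0.036, Ndufv1 0.058 and Uqcrc2 0.25. Under quantile normalization Atp5g3 was at 0.17, Cox7a2l 0.22, Ndufv1 0.062 and Uqcrc2 0.22. With the covariate, Atp5a1 was at 0.045, Cox7a2l 0.28, Ndufv1 0.077, Sdha 0.31, Uqcrc2 0.037 and Uqcrh -0.23. With array weights Uqcrc2 was at 0.024. With the length trend removed, Atp5g3 was at 0.24, Cox7a2l 0.25, Ndufb8 0.14 and Uqcrc2 0.17. With each library left out, Cox7a2l ranged from -0.25 to 0.18, Ndufv1 from -0.42 to 0.036, Uqcrc2 from -0.083 to 0.051 and Uqcrh from -0.15 to 0.24. The cause of these differences was not tested. With no read counts and 4 libraries a group, what depth limits cannot be given.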
